A study of Homo sapiens with 4 samples.

Results

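The line labelled LhTERTL, a PC-3 derivative that overexpresses hTERT and has long telomeres, was compared with the line labelled mock, which has basal hTERT and short telomeres. The comparison takes 2 of the 4 arrays of the series, the value on the LhTERTL array minus the value on the mock array, over 54613 of 54675 probe sets after 62 Affymetrix control probe sets were left out. PC-3 is an established epithelial line from a bone metastasis of a human prostate cancer. The 2 remaining lines are mock/cre+, with basal hTERT and short telomeres, and LhTERTL/cre+, with basal hTERT and long telomeres. LhTERTL and mock carry no Cre label, so they differ by label in both hTERT and telomere length, and these cannot be told apart in this comparison. The labels used here do not say whether a line is 1 clone or a pool, which promoter drives hTERT, or how long the telomeres are.

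Telomeres are the protein-capped repeats at chromosome ends, and they shorten with division unless they are replenished. TERT encodes the catalytic subunit of telomerase, the ribonucleoprotein that adds the repeats. Most carcinomas reactivate the enzyme, and cancer lines such as PC-3 often keep it active while holding their telomeres short. Genes near chromosome ends can be influenced by the telomere next to them, which is called the telomere position effect.

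Each line was measured on 1 array, so a difference has no replicate check and none is tested here. All differences are log2 units, so 1 is a 2-fold difference. In the deposited table every probe set has a median of 0 across the arrays, so a value says how an array stands relative to the others and no expression level can be given. For the same reason the epithelial label cannot be checked by level. EPCAM, an epithelial surface protein, stood 0.51 higher in LhTERTL than in mock, CDH1 (E-cadherin) 0.94 higher and the keratins KRT8 and KRT18 0.29 and 0.20 lower (differences of -0.29 and -0.20). Of 12 measured leukocyte, 10 fibroblast and 9 endothelial markers, 0 differed 2-fold, with median differences of -0.03, -0.04 and -0.21. In bulk RNA fewer cells of a kind and less RNA per cell cannot be told apart. Among the control probe sets, the 24 for the labelling spikes were all lower on the LhTERTL array, by 0.31 to 0.83 (differences of -0.31 to -0.83), while the 18 hybridisation controls lay between -0.24 and 0.07. The 3′ minus 5′ value of ACTB differed by -0.01 between the arrays and that of GAPDH by -0.03. The part of these control differences in the results was not tested.

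The label was checked on TERT. One probe set stood at 0.12 in mock, 3.54 in LhTERTL, -0.12 in mock/cre+ and -0.16 in LhTERTL/cre+. LhTERTL was the high array and the remaining lines lay close together. The other TERT probe set stood at 0.06 in mock, -0.66 in LhTERTL, -0.06 in mock/cre+ and 0.10 in LhTERTL/cre+. There LhTERTL was the low array. The differences between LhTERTL and mock were 3.42 and -0.72, and their mean 1.35 is no measure of the gene. The sources used here do not say which transcript region either probe set targets. Of 15 measured genes of telomerase and its assembly, TERT alone was counted as 2-fold higher, by that mean, and 0 were 2-fold lower, and the list's median was -0.01. Of the 11 with an unmarked probe set, 0 were 2-fold apart when these alone were used. Unmarked means, here and below, that the probe set's name carries no x, s or a mark. These marks were treated alike, so a probe set left out this way is not thereby called cross-hybridising. The high TERT probe set was left out because it carries the mark a. The proteins that cap or process telomeres (shelterin, the CST complex and the tankyrases) held 0 such genes of 16, with a median of -0.13. Their most distant members were ACD, the shelterin protein TPP1 that brings telomerase to the end, at -0.59, and ZBTB48, a telomere-binding zinc finger protein, at -0.56.

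Most transcripts differed little between the lines, and the larger differences leaned to higher values in LhTERTL. Of 54613 probe sets, 1170 (2.14%) were at least 2-fold higher in LhTERTL and 507 (0.928%) at least 2-fold lower. Averaged over probe sets with a single gene symbol, 442 of 19775 genes (2.24%) were at least 2-fold higher and 170 (0.86%) at least 2-fold lower, while 90.5% lay within 1.5-fold. The median gene stood at -0.03, and 54.8% of all genes lay below 0 and 45.1% above. The lean grew with size: 98 genes were higher by 4-fold and 21 lower, 33 and 2 by 8-fold, 12 and 0 by 16-fold, and 3 and 0 by 32-fold. These shares are the background for every gene list that follows.

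LhTERTL was an extreme array more often than mock among these genes. The genes were chosen for a 2-fold difference between LhTERTL and mock, which by itself favours either array being an extreme. The values on the LhTERTL array also had a larger SD (0.33) than those on the mock array (0.21). The counts therefore describe the chosen genes, and which line had changed was not tested. Among the 442 higher genes LhTERTL had the highest value of the 4 arrays in 375, and it exceeded every other array by 2-fold in 166. Mock was the lowest of the 4 arrays in 250, and in 16 of these by 2-fold. Among the 170 lower genes LhTERTL was lowest in 162 and lay 2-fold below every other array in 101. The remaining lines were set against mock for the same genes, with mock shared by these differences: the 442 higher genes had a median of 1.44 in LhTERTL, 0.72 in mock/cre+ and 0.07 in LhTERTL/cre+. For the 170 lower genes the medians were -1.24, -0.22 and 0.08. LhTERTL/cre+, the other long-telomere line, thus lay near mock for both groups of genes, and 86 of all genes (0.435%) differed 2-fold between it and mock. Between mock/cre+ and mock, which share their hTERT and telomere labels, 400 genes (2.02%) were 2-fold higher in mock/cre+ and 128 (0.647%) lower. A difference count near that of LhTERTL minus mock was thus also seen between lines with the same hTERT and telomere labels. The pair with Cre, LhTERTL/cre+ minus mock/cre+, shares no array with LhTERTL minus mock. Of the 442 higher genes, 2 were 2-fold higher in that pair, 119 were 2-fold lower and 321 were under 2-fold, where the background of that pair was 0.394% higher and 1.18% lower. Of the 170 lower genes, 5 were 2-fold lower there, 12 were 2-fold higher and 153 were under 2-fold.

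The genes highest in LhTERTL, among those whose probe sets were all 2-fold apart, included membrane, matrix and neural proteins. FLRT3, a leucine-rich adhesion protein that binds fibroblast growth factor receptors, stood at -0.81 in mock, 4.20 in LhTERTL, 0.81 in mock/cre+ and -1.19 in LhTERTL/cre+, a difference of 5.02 on both of its probe sets. IFI16, a nuclear DNA sensor, stood at -1.68, 2.87, 0.86 and -0.87 in the same order, a difference of 4.55 with 3 probe sets from 4.01 to 4.98. In both genes LhTERTL was far above the rest, mock/cre+ was second and the remaining lines were low. HAS2, a hyaluronan synthase, showed another order, at -2.89 in mock, 1.44 in LhTERTL, 0.56 in mock/cre+ and -0.56 in LhTERTL/cre+. Mock lay far below the rest, LhTERTL was less far above mock/cre+, and the difference was 4.33. RTN1, a reticulon of the endoplasmic reticulum, stood at 1.89 in LhTERTL and 1.86 in mock/cre+, against -2.22 in mock and -1.85 in LhTERTL/cre+, and thus LhTERTL and mock/cre+ were close together. The microtubule protein MAP2 of neurons was 4.15 higher in LhTERTL, the stress-linked NIBAN1 3.76, the ATP-gated channel P2RX7 3.47, the phosphatase PPM1E 3.0 and the Rag GTPase RRAGD of nutrient signalling 2.96. CD24, a surface glycoprotein, was 2.79 higher over 6 probe sets from 2.04 to 3.17. Below these came the calcium buffer CALB1 (2.52), the fatty acid ligase ACSL1 (2.49), the heparan sulfate proteoglycan SDC2 (2.36), the zinc finger gene ZNF667 (2.35) and BTC, the EGF receptor ligand betacellulin (2.29). The single-probe-set genes were led by the transcription factor ZIC2 at 5.47, followed by RAI2 (4.60), BEX4 (4.55), ALDH1A1 (4.55) and LCN2 (4.30). LCN2, the iron-siderophore carrier lipocalin 2, was high on LhTERTL alone, at 4.51, where mock stood at 0.21, mock/cre+ at -0.21 and LhTERTL/cre+ at -0.50.

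Among the lowest genes were secreted proteins, receptors and growth factor regulators. PI3, the elastase inhibitor elafin, stood at 1.32 in mock, -1.50 in LhTERTL, -0.13 in mock/cre+ and 0.13 in LhTERTL/cre+. Mock was high and LhTERTL low, and the difference was -2.81. HIKESHI, which carries HSP70 into the nucleus, stood at 0.58, -2.16, -0.51 and 0.56 in that order, a difference of -2.74 on probe sets that agreed (-2.78 and -2.69). IL7R, the interleukin 7 receptor, stood at 0.06, -2.18, 0.21 and -0.06, a difference of -2.23, with LhTERTL the only array away from the rest. PLCXD3, a phospholipase-like protein, was at -2.58, the membrane protein TMEM47 at -2.28, the fibrillar collagen COL5A2 at -2.02, the synaptotagmin SYT16 at -1.96 and TNFAIP6, a hyaluronan-binding protein, at -1.90. IGFBP3, which binds insulin-like growth factors, was at -1.88, the activin antagonist FST at -1.85 and the activin subunit INHBA at -1.59. The ribonucleotide reductase subunit RRM2 was at -1.80, the zinc finger protein BNC2 at -1.58, and FGF2 and the heparan sulfatase SULF2 both at -1.41. TNFAIP6 and FGF2 were high on mock, at 1.49 and 1.04, and FGF2 was lower in mock/cre+ (-0.60) than in LhTERTL (-0.36). Among genes with a single probe set the lowest were PHACTR3, a regulator of protein phosphatase 1 (-3.68), the LIM protein CRIP1 (-3.32), the pseudogene AADACP1 (-2.93), the peptidase TRHDE (-2.70) and PLAT, tissue plasminogen activator (-2.70).

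**Figure D1:**
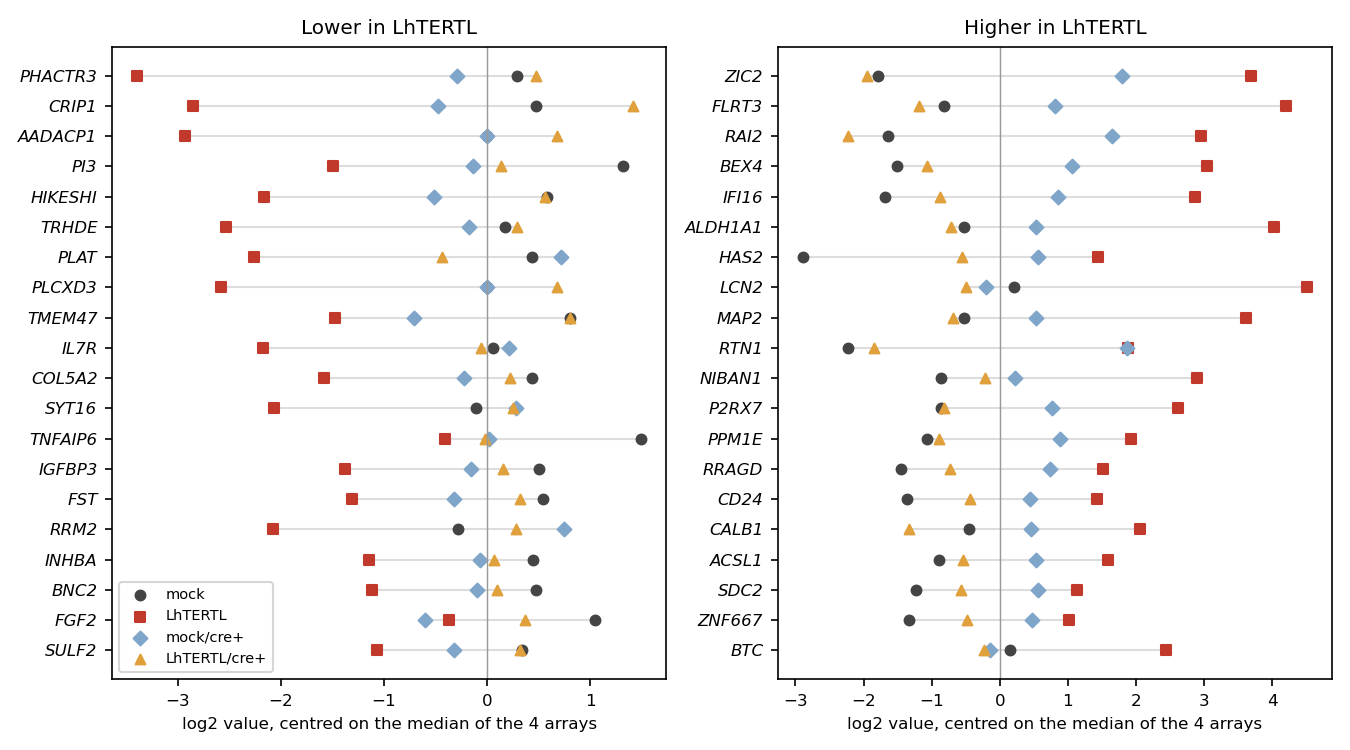
Values of the 20 genes named as lowest (left) and the 20 named as highest (right) in LhTERTL relative to mock; x, log2 value centred on the median of the 4 arrays; each symbol is 1 array and grey lines join the arrays of a gene. In FLRT3 the LhTERTL array stands at 4.20 and the others between -1.19 and 0.81, whereas RTN1 has LhTERTL and mock/cre+ together at 1.89 and 1.86.

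Probe sets of one gene often disagreed in size. Over all genes with several probe sets the median SD among them was 0.178, and among the 208 such genes that were 2-fold higher it was 0.578. In 180 of these 208 all probe sets lay above 0, and in 71 all were at least 2-fold apart. Of the 83 lower genes with several probe sets, 82 had all of them below 0 and 27 had all at least 2-fold apart. CYP1B1, a cytochrome P450 that oxidises estrogens and aromatic hydrocarbons, had the highest mean of all genes, 5.77, from probe sets at 8.71, 7.53, 6.80 and 0.04. Its strongest probe set stood at -3.19 in mock, 5.52 in LhTERTL, 2.93 in mock/cre+ and -2.93 in LhTERTL/cre+. Both LhTERTL and mock/cre+ were high. The hyaluronan synthase HAS3 had probe sets at -4.08 and -0.19, and the chromatin protein HMGA2 had 9 that ran from -2.86 to 0.04.

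**Figure D2:**
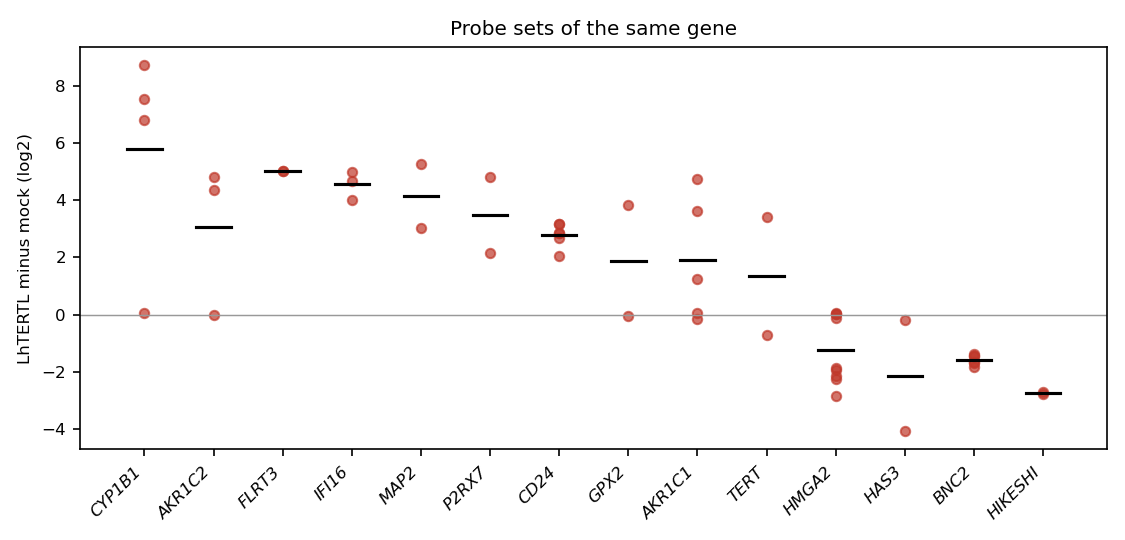
Difference LhTERTL minus mock (y, log2) of every probe set of 14 named genes; points are probe sets and black bars their mean. FLRT3, IFI16, BNC2 and HIKESHI have probe sets close together, while TERT has probe sets at 3.42 and -0.72.

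Enzymes of antioxidant defence and of carbonyl reduction were among the groups most often higher in LhTERTL. The transcription factor NRF2 switches on such genes through the antioxidant response element. Of 33 measured genes of the NRF2-type list, 9 were 2-fold higher and 0 lower (background 2.24% and 0.86%), and the list's median was 0.35 against -0.03 over all genes. PIR, the iron-binding protein pirin, stood at -1.09 in mock, 2.28 in LhTERTL, 0.49 in mock/cre+ and -0.49 in LhTERTL/cre+, a difference of 3.37. HMOX1, heme oxygenase 1, stood at 0.07, 2.01, -0.72 and -0.07, a difference of 1.94, and the ubiquitin ligase TRIM16 at -0.02, 1.93, 0.02 and -0.28, a difference of 1.95. LhTERTL was the high array in each, and mock/cre+ was the low one for HMOX1. GPX2, a glutathione peroxidase, was 1.88 higher on average, with probe sets at 3.81 and -0.05. The rest of the 9 were BLVRB (biliverdin reductase B, 1.60), NQO1 (a quinone reductase, 1.16), SRXN1 (sulfiredoxin, 1.07), GCLM (the modifier subunit of glutathione synthesis, 1.06) and ABCC1 (a glutathione-conjugate exporter, 1.05). The list's median was 0.04 in mock/cre+ and -0.02 in LhTERTL/cre+, each relative to the shared mock.

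Promoter sequences of the 2-fold higher NRF2-type genes were searched for the antioxidant response element, written TGACNNNGC, on both strands from 250 bases before to 50 after the RefSeq start. The element occurred in 13.6% of 27305 promoters, in 14.8% of the 15384 promoters of measured genes, in 15.9% of the 345 of 2-fold higher genes, in 14.3% of the 133 of 2-fold lower genes and in 7 of 24 promoters of the list (29.2%). It was found in 3 of the 7 list genes that were 2-fold higher and had a promoter entry. They are shown because they carry the element, with the element in capitals (it lies on the opposite strand in each), from RefSeq GRCh38.p14, 5′ to 3′ along the gene. A match is a description of letters and not a site of binding.
PIR (chrX:15493284-15493583, minus strand): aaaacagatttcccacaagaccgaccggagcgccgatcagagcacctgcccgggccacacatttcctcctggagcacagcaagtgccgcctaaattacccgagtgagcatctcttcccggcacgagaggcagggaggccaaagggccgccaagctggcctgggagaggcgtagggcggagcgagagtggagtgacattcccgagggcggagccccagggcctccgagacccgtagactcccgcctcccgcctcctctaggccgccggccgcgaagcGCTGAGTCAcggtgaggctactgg
GPX2 (chr14:64942696-64942995, minus strand): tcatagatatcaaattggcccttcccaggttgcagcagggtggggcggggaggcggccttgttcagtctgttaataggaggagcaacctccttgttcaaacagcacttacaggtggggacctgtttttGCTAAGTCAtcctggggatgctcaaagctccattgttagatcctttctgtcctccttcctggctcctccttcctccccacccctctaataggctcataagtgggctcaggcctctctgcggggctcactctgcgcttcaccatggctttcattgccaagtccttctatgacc
GCLM (chr1:93909381-93909680, minus strand): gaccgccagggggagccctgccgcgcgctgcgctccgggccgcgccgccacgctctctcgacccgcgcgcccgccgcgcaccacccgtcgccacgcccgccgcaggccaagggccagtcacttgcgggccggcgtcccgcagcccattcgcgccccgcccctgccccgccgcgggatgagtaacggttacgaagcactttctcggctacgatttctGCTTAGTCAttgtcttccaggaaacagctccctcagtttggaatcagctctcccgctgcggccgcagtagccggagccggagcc

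The aldo-keto reductases, which reduce aldehydes and ketones including steroids, held 4 genes of 9 that were 2-fold higher. AKR1B10 stood at -0.74 in mock, 2.95 in LhTERTL, 0.74 in mock/cre+ and -1.66 in LhTERTL/cre+, a difference of 3.69, and AKR1C3 stood at -0.80, 2.75, 0.30 and -0.30, a difference of 3.54. AKR1C2 and AKR1C1 were 3.04 and 1.90 higher on average. These neighbours are near-identical in sequence and their probe sets split: AKR1C2 had 4.82 and 4.34 on probe sets marked as cross-hybridising and -0.03 on the unmarked one, and AKR1C1 ran from -0.15 to 4.74 over 5. The share of each AKR1C gene in this signal is therefore uncertain. With unmarked probe sets only, 1 of 7 aldo-keto genes was 2-fold higher and the list's median was 0.13 rather than 0.30. The antioxidant element was not found in the promoter window of the 3 aldo-keto genes that were 2-fold higher and had an entry. The aldehyde dehydrogenases held 3 of 19. ALDH1A1, which makes retinoic acid from retinal, stood at -0.53 in mock, 4.02 in LhTERTL, 0.53 in mock/cre+ and -0.72 in LhTERTL/cre+, a difference of 4.55 on its only probe set. ALDH3A1 and ALDH3A2, which clear fatty and aromatic aldehydes, were 1.69 and 1.02 higher. Of 27 cytochrome P450 genes 3 were higher: beside CYP1B1 these were CYP39A1, an oxysterol hydroxylase (1.95), and CYP2R1, the vitamin D 25-hydroxylase (1.71). With unmarked probe sets only, 1 of 22 was. The sulfotransferase SULT1C2 was 1.73 higher, with probe sets from -0.08 to 3.35. In the retinoid list of 27, RBP4, the retinol carrier, was at -1.56 and RARRES1, a retinoid-responsive gene, at 1.06. Of 22 steroid-converting enzymes HSD17B2, which inactivates estradiol and testosterone, was the 1 gene 2-fold apart, at -1.31.

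Genes of DNA replication were lower in LhTERTL than in mock. Most of them are switched on by E2F factors as cells enter S phase. Of 47 measured G1/S and replication genes, 0 were 2-fold higher and 10 were 2-fold lower, 43 lay below 0, and the median was -0.60. LhTERTL was the lowest of the 4 arrays in 41 of the 47. The share of all genes with LhTERTL as the lowest or highest array was not counted. Such counts, here and for the lists below, therefore have no background beside them. RRM2 stood at -0.28 in mock, -2.08 in LhTERTL, 0.75 in mock/cre+ and 0.28 in LhTERTL/cre+, a difference of -1.80, and POLE2, a subunit of DNA polymerase epsilon, at -0.47, -2.19, 0.92 and 0.47, a difference of -1.73. The origin-licensing factor CDT1 stood at -0.16, -1.69, 0.34 and 0.17, a difference of -1.54. In all of them LhTERTL was low, mock lay between, and both Cre lines were above mock. CCNE2, cyclin E2, was at -1.49, the repressor E2F8 at -1.35 and the uracil glycosylase UNG at -1.25. TYMS, thymidylate synthase, was at -1.18, UHRF1, a maintenance factor of DNA methylation, at -1.16, the helicase subunit MCM6 at -1.15 and RRM1, the partner of RRM2, at -1.14. Relative to mock the list's median was 0.79 in mock/cre+, with 18 genes 2-fold higher (background 2.02%), and 0.44 in LhTERTL/cre+. In the pair with Cre the median was -0.51 and 5 genes were 2-fold lower, where 1.18% of genes were.

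An E2F site, written TTTNGCGC, was searched in the same promoter windows on both strands. It occurred in 1.83% of all 27305 promoters, in 2.40% of the 15384 of measured genes, in 7.52% of the 133 of 2-fold lower genes, in 1.45% of the 345 of 2-fold higher genes, and in 14 of 39 of the G1/S list (35.9%). In the G2/M list 2 of 32 held it. Of the 8 G1/S genes that were 2-fold lower and had a promoter entry, 3 held it (37.5%), close to the share of the whole G1/S list. The 133 promoters of 2-fold lower genes include theirs. These 3 promoters are printed with the site in capitals (RefSeq GRCh38.p14). In MCM6 matches on both strands overlap at each of the capital stretches, and POLE2 has a match on either strand.
MCM6 (chr2:135876394-135876693, minus strand): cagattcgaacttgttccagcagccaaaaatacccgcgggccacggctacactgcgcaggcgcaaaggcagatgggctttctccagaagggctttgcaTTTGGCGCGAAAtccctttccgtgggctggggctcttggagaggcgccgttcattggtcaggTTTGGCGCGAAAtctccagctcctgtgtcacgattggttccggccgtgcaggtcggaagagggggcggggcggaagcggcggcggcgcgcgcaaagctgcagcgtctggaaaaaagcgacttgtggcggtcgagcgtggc
CDT1 (chr16:88803539-88803838, plus strand): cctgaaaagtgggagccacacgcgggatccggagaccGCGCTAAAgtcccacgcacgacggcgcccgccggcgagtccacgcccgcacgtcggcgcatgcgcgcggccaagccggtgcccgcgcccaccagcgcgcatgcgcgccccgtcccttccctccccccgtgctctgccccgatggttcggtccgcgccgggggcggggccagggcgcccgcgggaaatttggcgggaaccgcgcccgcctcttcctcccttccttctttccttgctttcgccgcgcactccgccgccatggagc
POLE2 (chr14:49688165-49688464, minus strand): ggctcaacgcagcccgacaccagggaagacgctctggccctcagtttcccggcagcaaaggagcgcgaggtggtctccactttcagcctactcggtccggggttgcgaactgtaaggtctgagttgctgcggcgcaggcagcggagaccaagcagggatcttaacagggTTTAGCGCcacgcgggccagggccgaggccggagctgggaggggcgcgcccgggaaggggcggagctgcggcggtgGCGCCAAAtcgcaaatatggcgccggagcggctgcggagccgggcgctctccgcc

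Genes of mitosis followed with smaller differences. Of 38 G2/M genes 0 were 2-fold apart, but 34 lay below 0, LhTERTL was the lowest array in 34, and the median was -0.33. The spindle protein TPX2 was at -0.88 and the kinetochore motor CENPE at -0.84. Of 43 DNA repair genes 2 were 2-fold lower, the exonuclease EXO1 (-1.17) and the recombination protein RAD54B (-1.02), 35 lay below 0, and the median was -0.21. HELLS, a chromatin remodeller needed for DNA methylation, was at -1.01 over 5 probe sets from -1.35 to -0.32. MYC, which drives ribosome production and growth, stood at 0.19 in mock, -0.93 in LhTERTL, -0.02 in mock/cre+ and 0.02 in LhTERTL/cre+, a difference of -1.13. It was the 1 gene of 26 in the MYC and ribosome biogenesis list that was 2-fold apart, while 24 of the 26 lay below 0 with a median of -0.40. Unlike the replication list, this list had medians near 0 in mock/cre+ (0.00) and in LhTERTL/cre+ (-0.03) relative to mock. CDKN1A, the inhibitor p21, stood at 0.34 in mock, 2.09 in LhTERTL, -0.57 in mock/cre+ and -0.34 in LhTERTL/cre+, a difference of 1.75. PC-3 is known to lack functional p53, the usual activator of this gene. Of the 26 CDK inhibitors and p53 targets the other 2-fold gene was PHLDA3 (1.24), and the list's median was 0.02. Replication-dependent histones held H2BC4 (-2.07), H2BC21 (-1.17) and H4C11 (1.09) among 30 genes, with a median of -0.03. H2BC4 was high on mock (1.91) rather than low on LhTERTL (-0.16). Ribosomal proteins had a median of -0.05 over 35 genes, proteasome subunits -0.15 over 29, and oxidative phosphorylation -0.22 over 36 (27 below 0), and 0 genes of these 3 lists were 2-fold apart.

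**Figure D3:**
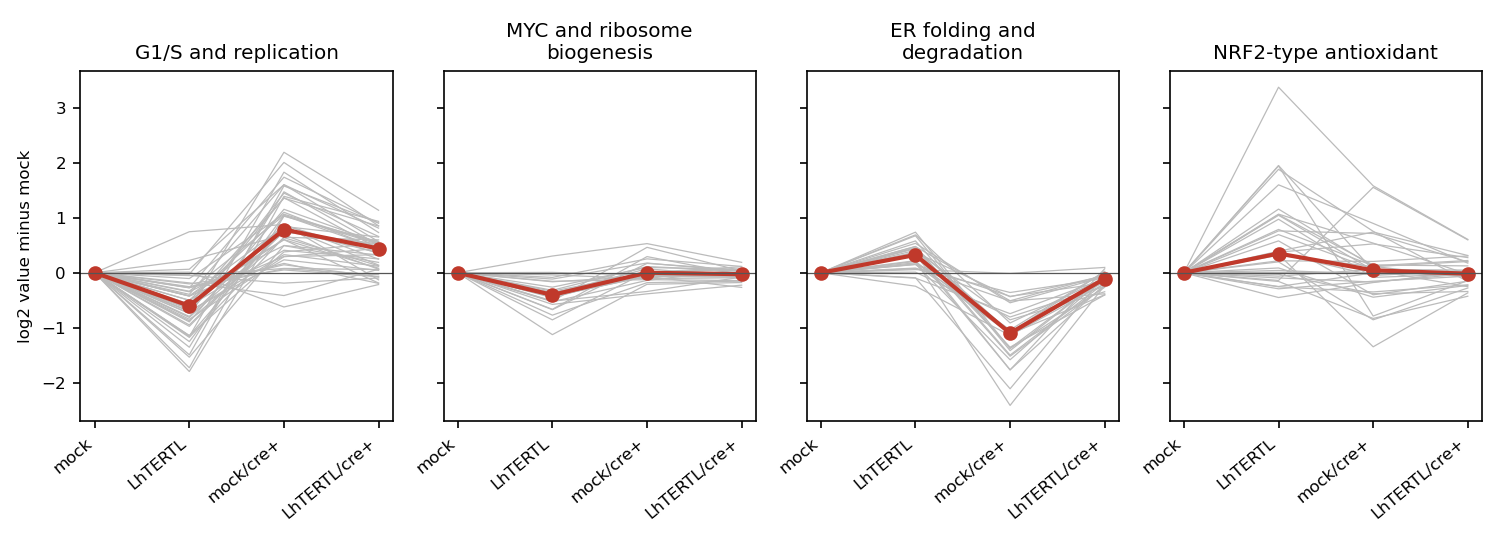
Values relative to mock (y, log2) on the 4 arrays for the measured members of 4 lists; thin lines are genes and the thick line is their median. The G1/S median is -0.60 in LhTERTL and 0.79 in mock/cre+, the endoplasmic reticulum median is 0.32 and -1.10, and the NRF2-type median is 0.35 and 0.04.

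Endoplasmic reticulum folding genes lay mostly slightly above 0 in LhTERTL. Of 27 genes 24 lay above 0 and 0 reached 2-fold, and the median was 0.32. The secretory chaperone calreticulin CALR was at 0.69 and the stress-induced CRELD2 at 0.74. LhTERTL was the highest array in 23 of the 27. Relative to mock the same list had a median of -1.10 in mock/cre+, with 16 genes 2-fold lower (background 0.647%), and of -0.11 in LhTERTL/cre+. Of 32 amino acid stress genes the lipoprotein receptor VLDLR (1.95) and the mTORC1 inhibitor DDIT4 (1.18) were higher and CHAC1, which degrades glutathione, was lower (-1.32). Heat shock genes had a median of 0.44 over 20 (-0.06 over the 15 with unmarked probe sets), with HSPB1 (1.91), DNAJB4 (1.33) and HSPH1 (1.08) higher and HSPA6 lower (-1.16). HSPB1 was low on both mock (-0.97) and LhTERTL/cre+ (-0.86) and high on LhTERTL (0.95) and mock/cre+ (0.86). The autophagy protein WIPI1 was 1.18 higher and the lysosomal protease CTSB was at -1.21, the 2 genes of 35 in that list that were 2-fold apart.

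Lipid synthesis genes were higher in LhTERTL in part. Cholesterol synthesis genes lay above 0 in 18 of 19 with a median of 0.27, but only INSIG1, the sterol sensor that restrains the pathway, reached 2-fold (1.22), and LhTERTL was the highest array in 16. Of 26 genes of fatty acid synthesis and desaturation 4 were 2-fold higher and 0 lower: the chain elongases ELOVL7 (2.93) and ELOVL4 (2.85), the ligase ACSL1 (2.49) and SCD, stearoyl-CoA desaturase (1.53). SCD stood at 0.04 in mock, 1.57 in LhTERTL, -0.04 in mock/cre+ and -0.23 in LhTERTL/cre+, high on LhTERTL alone, whereas ELOVL4 was low on mock, at -1.96 against 0.89, 0.21 and -0.21. The fatty acid transporter SLC27A2 was 1.29 higher, the 1 gene of 27 for uptake, binding and oxidation. Of 24 ABC transporters, ABCG1, which exports cholesterol, was 1.49 higher beside ABCC1. The glucose transporter SLC2A10 was 1.62 higher, the 1 gene of 34 amino acid and glucose transporters that was 2-fold apart.

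Some tight junction genes and epithelial regulators were higher in LhTERTL. Of 33 tight junction genes 4 were 2-fold higher and 0 lower, with a median of 0.08. The claudin CLDN7 stood at -0.65 in mock, 2.08 in LhTERTL, -0.17 in mock/cre+ and 0.17 in LhTERTL/cre+, a difference of 2.72, and occludin, OCLN, stood at 0.16, 1.93, -0.29 and -0.17, a difference of 1.76. The polarity protein CRB3 and the adhesion receptor CXADR were both 1.63 higher, CXADR with probe sets from 0.12 to 3.48. Epithelial regulators and surface proteins held 4 higher and 0 lower of 33, with a median of 0.21: CD24, PROM1 (prominin 1, 1.45), and the transcription factors ELF3 (1.40) and GRHL2 (1.31). With unmarked probe sets only, 2 of 24 were higher. GRHL2 was low on mock (-1.0) and was higher in mock/cre+ (0.65) than in LhTERTL (0.31). Keratins had 15 of 21 genes below 0, where 54.8% of all genes were, and the basal keratin KRT15 was at -1.50. The desmosomal cadherin DSC3 was at -1.22, the 1 gene of 25 in desmosomes and adherens junctions. Of 34 genes of the mesenchymal state only SPARC, a secreted collagen-binding protein, was 2-fold apart, at -1.72 with probe sets at -2.65 and -0.78, and the median was 0.00. Among 20 prostate luminal genes STEAP1 (1.36) and NDRG1 (1.49) were higher, and of 11 basal genes S100A2 (1.22) was higher beside the lower KRT15. Of 17 neuroendocrine genes SYT1 (1.42), FOXA2 (1.15) and NTS (1.09) were 2-fold higher, and the median was -0.03. FOXA2 was higher still in mock/cre+, at 1.04 against 0.46 in LhTERTL. The stem cell related list of 22 was split, with ALDH1A1, CD24 and PROM1 higher and HMGA2 (-1.24), ITGA2 (-1.16) and MYC lower. Its median was -0.11.

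**Figure D4:**
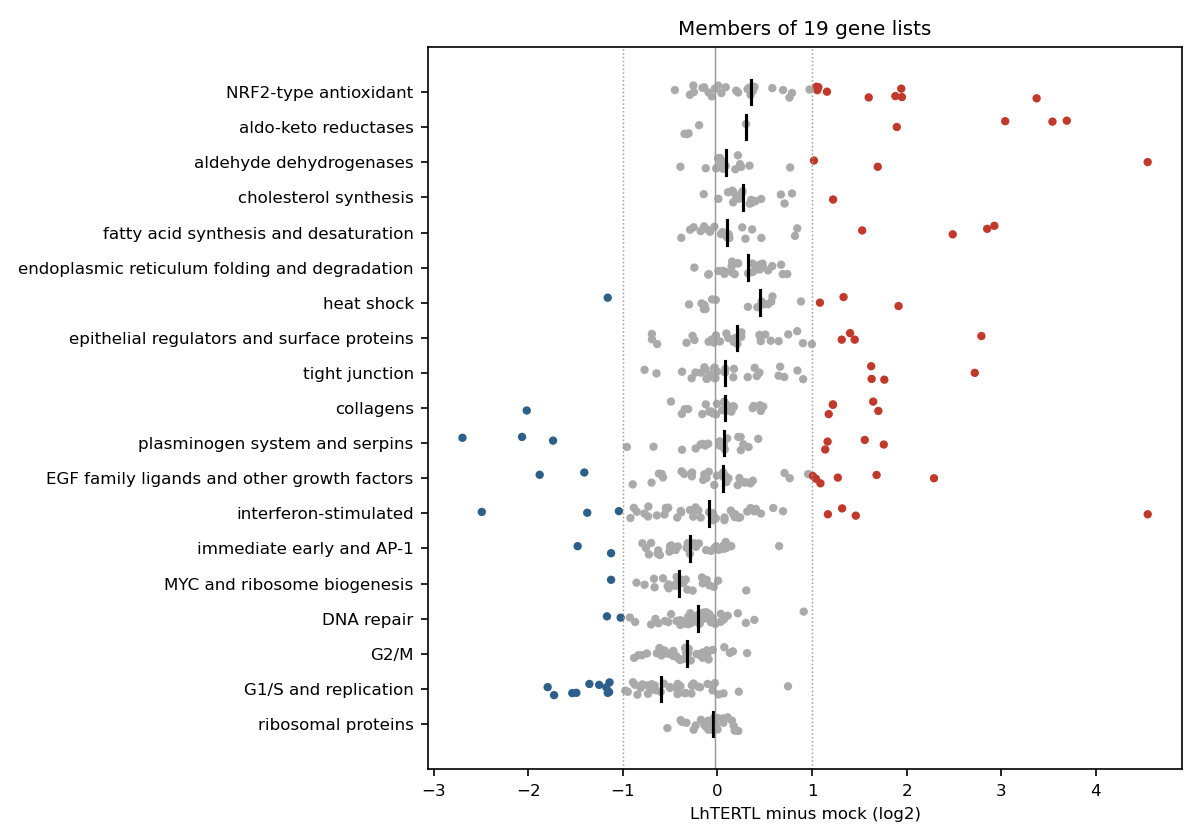
Difference LhTERTL minus mock (x, log2) of each measured member of 19 gene lists (y); points are genes, red at least 2-fold higher and blue at least 2-fold lower, black bars are list medians, the grey line is the median of all genes (-0.03) and dotted lines mark 2-fold. The G1/S list lies mostly below 0 (43 of 47), and the NRF2-type list has 9 members past 2-fold on the right.

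Matrix genes differed in both directions. Of 30 collagens 5 were 2-fold higher and 1 lower. COL5A1 stood at -0.65 in mock, 1.05 in LhTERTL, 0.12 in mock/cre+ and -0.12 in LhTERTL/cre+, a difference of 1.70, while COL5A2, whose chain assembles with it in type V collagen, was at -2.02. LhTERTL was thus highest for the first and lowest for the second. COL21A1 was 1.65 higher, and COL6A3, COL15A1 (each 1.22) and COL16A1 (1.18) followed. SERPINH1, the collagen chaperone, was 1.76 higher. Hyaluronan synthases were split between HAS2 (4.33) and HAS3 (-2.13). Of 37 other matrix proteins 4 were higher and 2 lower, with osteopontin SPP1 at 1.22 on disagreeing probe sets of 2.72 and -0.27. The collagen-binding integrin ITGA2 was the 1 of 19 integrins that was 2-fold apart. Among metalloproteinases and their inhibitors 3 of 35 were higher, the inhibitors TIMP1 (1.82) and TIMP3 (1.64) and the stromelysin MMP10 (1.70). In the plasminogen system and serpins 4 of 27 were higher and 3 lower. PLAT, which activates plasminogen, stood at 0.44 in mock, -2.26 in LhTERTL, 0.72 in mock/cre+ and -0.44 in LhTERTL/cre+, and PLAUR, the urokinase receptor, was 1.14 higher. SERPINB7 was at -2.07 and SERPIND1, heparin cofactor II, at -1.74. Of 15 kallikreins KLK6 (3.55) and KLK5 (1.55) were higher. KLK6 stood at -1.36 in mock, 2.18 in LhTERTL, 0.84 in mock/cre+ and -0.84 in LhTERTL/cre+. Complement component C5 was at -2.11 and the complement inhibitor CD59 at -1.11 over 5 probe sets from -1.30 to -0.97, the 2 of 28 complement and coagulation genes that were 2-fold apart.

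Among growth factors 6 of 37 were 2-fold higher and 2 lower. BTC stood at 0.14 in mock, 2.43 in LhTERTL, -0.14 in mock/cre+ and -0.23 in LhTERTL/cre+, high on LhTERTL alone. PDGFD was 1.68 higher with probe sets at 3.14 and 0.22, and VEGFA, the endothelial growth factor, was 1.27 higher over 4 probe sets from 1.07 to 1.51. FGF12 (1.09), EGF (1.04) and PDGFA (1.01) followed. FGF2 and IGFBP3 were the lower genes. With unmarked probe sets only, 3 of 30 were higher and 0 lower. In the TGF-beta and BMP list 1 of 37 was higher and 3 lower. The activin subunits INHBA (-1.59) and INHBB (-1.41) and their antagonist FST (-1.85) were all lower, and BAMBI, a decoy receptor, was 1.63 higher. In the WNT list of 40 the receptor FZD7 (2.15) and the ligase RNF43 (1.53), which removes such receptors, were higher and WNT7A was at -1.07. FZD7 was low on both mock (-1.01) and LhTERTL/cre+ (-0.96) and high on LhTERTL (1.15) and mock/cre+ (0.96). In the Notch list of 27 the ligand DLL1 was 1.45 higher with probe sets at 2.59 and 0.32, and the repressor HES4 was at -1.25. Of 25 Hippo genes 19 lay below 0 (54.8% of all genes did), and the coactivator WWTR1 (TAZ) was at -1.11 over 3 probe sets from -1.17 to -1.05. The AP-1 subunit FOSL1 was at -1.48, and immediate early genes had a median of -0.29, with 25 of 33 below 0. The hypoxia list of 35 had a median of 0.06, with NDRG1, VEGFA and the collagen hydroxylase P4HA2 (1.17) past 2-fold.

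Cytokines and innate immune genes did not share a direction. IL6 stood at -0.11 in mock, 2.27 in LhTERTL, 0.11 in mock/cre+ and -1.60 in LhTERTL/cre+, a difference of 2.38. IL24 (1.29) and the eotaxin CCL26 (1.04) were also higher, and LIF (-1.24) and CXCL1 (-1.05) were lower, among 39 cytokines and chemokines with a median of 0.00. Of 43 cytokine and growth factor receptors ACKR3 (1.31, probe sets from 0.13 to 3.25) and IL20RB (1.21) were higher. Interferon-stimulated genes held 4 higher and 3 lower of 47, with a median of -0.09. IFI16, SAMD9 (1.46), SAMD9L (1.17) and the transcription factor IRF1 (1.32) were higher, and the mitochondrial nucleotide kinase CMPK2 (-2.49), the membrane restriction factor IFITM1 (-1.38) and IFIT2 (-1.04) were lower. CMPK2 stood at 0.01 in mock, -2.48 in LhTERTL, -0.01 in mock/cre+ and 0.87 in LhTERTL/cre+. The list thus held members both highest and lowest on the same array. Of 31 antigen processing genes the 1 past 2-fold was HLA-DQB1 (1.09), whose 7 probe sets ran from -0.11 to 2.63. The S100 list of 19, which counts LCN2, held S100A14 (2.29) and S100A2 higher and S100A9 at -1.17.

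Further lists held few or no genes past 2-fold. Of 25 HOX genes 3 were higher, HOXB7 (2.13), HOXB9 (1.59) and HOXB3 (1.58), and all are in the HOXB cluster, with median 0.19 over the list. HOXB7 stood at -0.25 in mock, 1.88 in LhTERTL, 0.16 in mock/cre+ and -0.22 in LhTERTL/cre+. The axon guidance genes EFNB2 (1.52) and SEMA5A (1.17) were the 2 of 36 ephrins and semaphorins, the trefoil peptide TFF3 (1.64) the 1 of 24 mucins and trefoil factors, and TSPAN7 (1.09) and TSPAN8 (-1.08) those of 25 tetraspanins and related proteins. TFF3 was higher still in LhTERTL/cre+, at 0.72 against 0.16 in LhTERTL and -1.48 in mock. Cancer-testis antigens (22 genes), metallothioneins (11) and housekeeping genes (12) held 0 genes past 2-fold, with medians of -0.01, -0.10 and -0.10.

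Neighbouring genes were examined in RefSeq order. In windows of 25 measured genes the median difference had an SD of 0.10 over all 19138 windows. The most higher window ran from RPA3 to AHR with a median of 0.51, 21 of 25 genes above 0 and 3 past 2-fold (UMAD1, TMEM106B and ICA1-AS1, at 1.31, 1.13 and 1.0). Next came STEAP1 to BET1 at 0.45, with STEAP1, SAMD9, SAMD9L and the G protein subunit GNG11 (1.79) past 2-fold, and MTO1 to TENT5A at 0.42, with FILIP1 (1.80) and ELOVL4. The most lower window ran from FLJ16779 to PRPF6 at -0.47, with 20 of 25 genes below 0 and ZGPAT (-1.14), EEF1A2 (-1.08) and STMN3 (-1.01) past 2-fold. MEN1 to DPF2 followed at -0.42 and ZNRD2 to SART1 at -0.36. In the last 2 windows 22 of 25 genes lay below 0, and CDCA5 (-1.08) and FOSL1 were their members past 2-fold. These 2 windows lie close together in the order and are not separate regions. A window of 50 genes from ATG2A to DRAP1 holds most of both, with a median of -0.26 and 5 genes above 0. Relative to the shared mock, the median of the FLJ16779 to PRPF6 window was -0.28 in mock/cre+ and -0.11 in LhTERTL/cre+, and that of RPA3 to AHR 0.17 and 0.19. In the same order the medians were 0.27 and 0.31 for MTO1 to TENT5A, and 0.10 and 0.04 for STEAP1 to BET1. They were -0.26 and -0.12 for MEN1 to DPF2, and -0.11 and -0.04 for ZNRD2 to SART1. In MTO1 to TENT5A mock thus lay below all the other lines by the median. Overlapping windows share genes, and the part of DNA copy number in these stretches was not tested.

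A shorter stretch, chosen after its values were seen, held 4 of the strongest lower genes. Between PICALM and FZD4 lie 9 measured neighbours, of which 8 were below 0 and 4 at least 2-fold lower, with a median of -0.78. PICALM, a clathrin assembly protein, stood at 0.41 in mock, -1.34 in LhTERTL, -0.42 in mock/cre+ and 0.36 in LhTERTL/cre+, a difference of -1.75. EED, a core subunit of Polycomb repressive complex 2, stood at 0.16, -1.54, -0.16 and 0.31, a difference of -1.70, and the protease PRSS23 at 0.24, -1.69, -0.19 and 0.36, a difference of -1.93. With HIKESHI these genes showed one order: mock and LhTERTL/cre+ high, mock/cre+ lower and LhTERTL lowest. Their probe sets agreed for HIKESHI and spread for the rest, from -3.65 to -0.30 for PICALM, at -3.29 and -0.10 for EED, and from -3.44 to -0.20 for PRSS23. Inside the stretch CCDC81 was at -0.72, ME3 at -0.45 and LOC100289518 at -0.16. Relative to mock its median was -0.32 in mock/cre+ and 0.12 in LhTERTL/cre+.

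**Figure D5:**
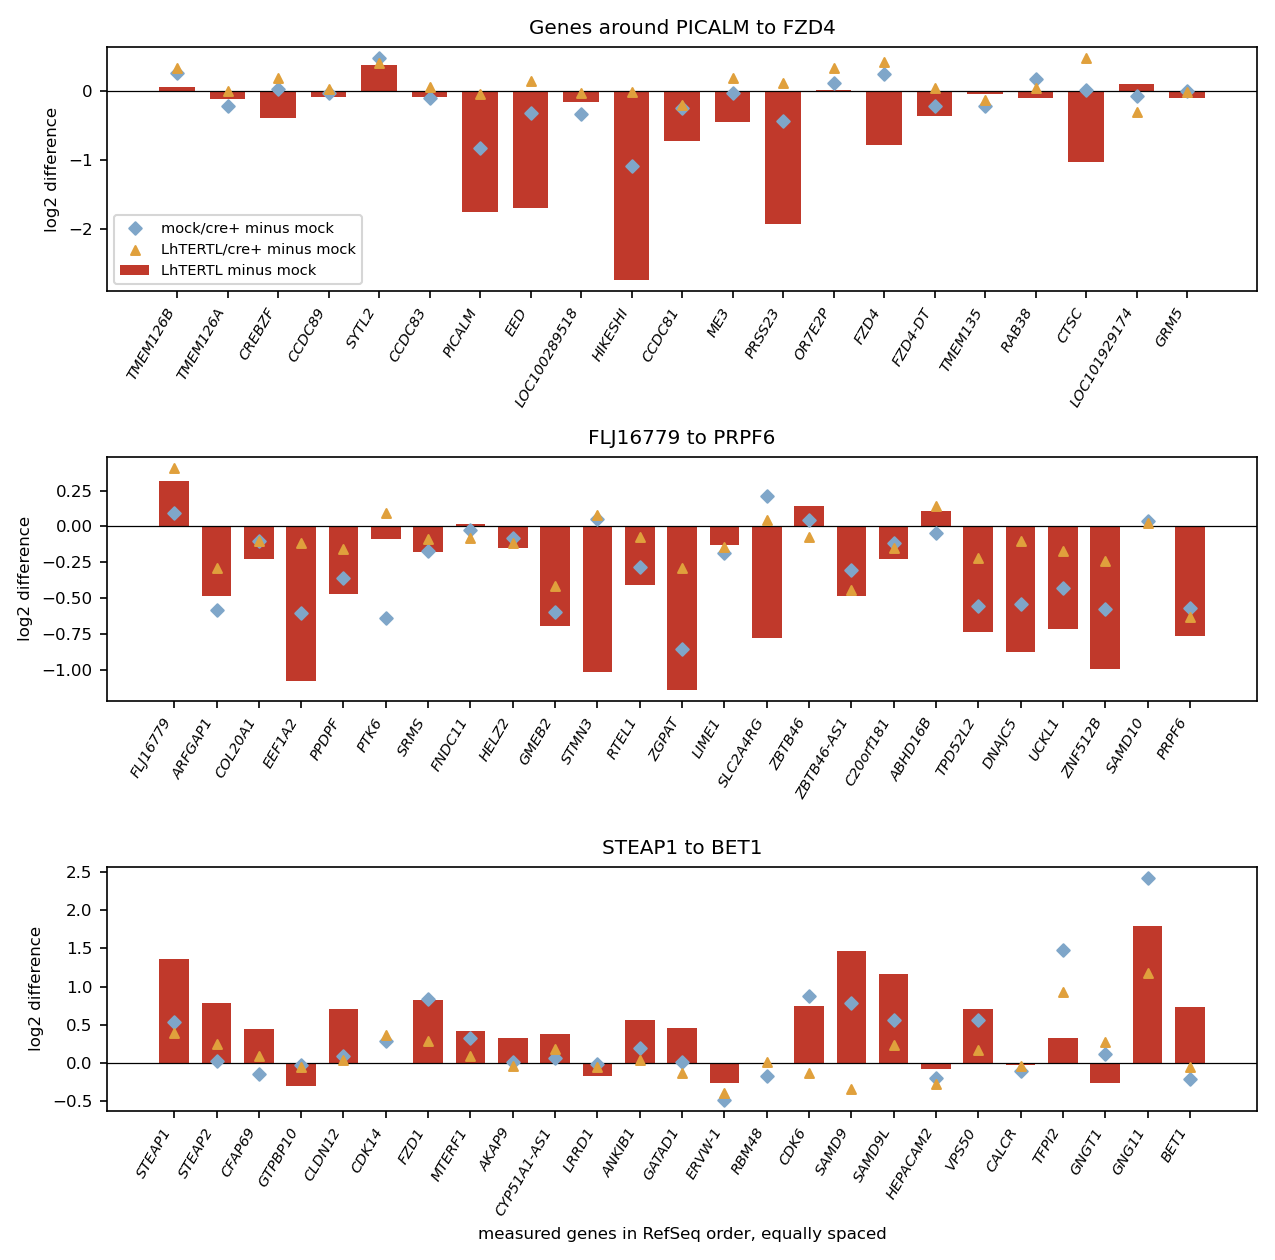
Log2 difference from mock (y) for measured genes in RefSeq order (x, equally spaced, not to genomic scale) in 3 stretches; bars are LhTERTL, diamonds mock/cre+ and triangles LhTERTL/cre+, and the y ranges differ between panels. PICALM, EED, HIKESHI and PRSS23 lie between -1.70 and -2.74 in LhTERTL while LhTERTL/cre+ stays near mock.

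Pooled over all chromosome ends, the outermost genes had a median close to that of all genes. Single ends were not summarised, so a difference confined to a few ends would not show in this median. Over the 20 outermost measured genes at each end, 920 in all, the median was -0.04 against -0.03 for all genes. Of them 14 (1.52%) were 2-fold higher and 10 (1.09%) lower, where 2.23% and 0.858% of all genes with a place in the order were. The genes past 2-fold included the LIM protein CRIP1 (-3.32), IFITM1 (-1.38), HES4 (-1.25) and TRIP13, a checkpoint ATPase (-1.20), on the lower side. On the higher side were VLDLR (1.95), NRSN2-AS1 (1.72) and DLL1 (1.45). The 46 ends include the starts of 5 acrocentric chromosomes, whose short arms hold few measured genes, so that the first genes there can lie far from the telomere. Without these starts, a choice made after the data were seen, the median over 820 genes was -0.04, and 10 (1.22%) were 2-fold higher and 9 (1.10%) lower. Of 9 genes reported elsewhere as sensitive to telomere length through the position effect, TERT was the 1 past 2-fold, by the same mean of disagreeing probe sets, and 6 lay below 0. Of the 6 with unmarked probe sets 0 were past 2-fold. TERT is the gene that LhTERTL overexpresses by label, so a position effect on it cannot be told apart from that overexpression.

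The probe sets in the authors' deposited higher list were all above 0 in LhTERTL relative to mock, with a median of 0.70, and 22 of them were at least 2-fold higher, out of 1170 such probe sets. Those in the authors' deposited lower list were all below 0, with a median of -0.67, and 27 were at least 2-fold lower, out of 507. The sources used here do not say how the authors chose these lists, and the same arrays entered them, so the counts describe the lists only.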

How the data were processed

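Total RNA of 4 PC-3 lines was labelled and hybridised to Affymetrix U133 Plus 2.0 arrays, with each line on 1 array, and groups were taken from the labels. The deposited log2 values were made by the authors with RMA, per the submitters' processing notes, which state no version. Each probe set's median over the 4 arrays is 0, so the rows had been centred, levels are unknown, and a filter on low values could not be set. The headers LhTERTL and mock/cre+ are exchanged in the authors' deposited lower list (100% of 129 probe sets, tolerance 1e-05), so only probe set names were taken from it.

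The LhTERTL value minus the mock value was computed for 54613 probe sets. A platform table paired 41091 of them with 1 gene symbol, 1801 with several and 11721 with none, and 41037 were matched by Entrez number to RefSeq (GRCh38.p14), which changed 0 symbols. A gene's value is the mean of its probe sets (19775 genes, 10523 with several). A 2-fold difference (1 in log2) was counted; with 1 array a side there is no test, no error and no p-value, and the number of arrays limits the precision. Lists (68, with 1725 measured genes) are described by counts and medians. Their members, and the comparison itself, were chosen with earlier results of these data known.

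Named genes were TERT; the 15 highest and 15 lowest among genes whose probe sets, 2 or more, were all 2-fold apart; the 5 highest and 5 lowest with 1 probe set; in each list up to 4 members of largest difference if 2-fold, otherwise up to 2; and the ends and 2-fold members of described stretches. Genes named beyond this rule (further 2-fold list members, cell type markers, the PICALM to FZD4 stretch, genes at chromosome ends) were picked after their values were seen. Gene order and promoters came from RefSeq tables. The gene summary and 2-fold count were tested on simulated data. Python 3.11.15 with numpy 2.4.6, pandas 2.3.3 and matplotlib 3.10.9 was used. The alternatives were another fold, probe set choice, centring, reference and window size.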

Additional observations from a re-analysis of the deposited data

How the results depend on the processing

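Counts depended on the fold required and on how probe sets were combined. At 1.5-fold 3007 probe sets were higher and 2446 lower, and at 4-fold 267 and 62; for genes the counts were 1134 and 738 at 1.5-fold and 98 and 21 at 4-fold. When each gene was represented by its most variable probe set, 765 genes were higher and 326 lower. That probe set was picked by its SD over the same arrays, LhTERTL and mock included. The choice by itself favours large differences and so higher counts. The median window of neighbours was 0.73 at most and -0.72 at least with 15 genes, and 0.38 and -0.29 with 50. AKR1C2 (-0.029) and TERT (-0.72) turned sign when only unmarked probe sets were used, which left each with 1 probe set. With the mean of mock and mock/cre+ as reference 345 genes were higher and 236 lower, and of the single-gene differences, list counts and list medians 174 moved past the limits set and 228 did not. The limits were 1.5 times for counts, 0.1 for medians, and for genes the larger of 0.1 and the SD over probe sets. No paired analysis was possible because the labels give no replicate numbers and each line has 1 array. Without replicates and without levels, neither the error of a difference nor signal over background can be given, and hTERT and telomere length are not separable here.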

Other observations

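Gene families outside the lists were chosen after their values were seen. Of 5 measured BEX genes, small X-linked proteins of neural tissue, 3 were 2-fold higher in LhTERTL: BEX4 (4.55), BEX2 (2.26) and BEX5 (1.15), while BEX3 was at 0.61 and BEX1 at 0.06. BEX2 stood at 0.13 in mock, 2.39 in LhTERTL, -0.13 in mock/cre+ and -0.99 in LhTERTL/cre+. BEX4 stood at -1.51, 3.05, 1.06 and -1.06 in the same order, with LhTERTL again highest. BEX5 stood at -0.83, 0.32, 0.40 and -0.32, low on mock and slightly higher in mock/cre+ than in LhTERTL. Of 4 teneurins, large transmembrane proteins of neuronal wiring, TENM2 (1.66), TENM4 (1.53) and TENM1 (1.23) were 2-fold higher and TENM3 was at 0.36. TENM2 was low on mock (-1.24) and close in LhTERTL (0.42) and mock/cre+ (0.40). LhTERTL was further above mock/cre+ for TENM4 (1.04 against 0.37) and TENM1 (1.19 against -0.02). TENM1 and TENM3 had probe sets that disagreed, at 0.17 and 2.30 for TENM1 and from -0.22 to 1.18 for TENM3.

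Neighbours in RefSeq order that were 2-fold apart in the same direction formed 23 higher runs and 1 lower run, PICALM with EED, and 4 of the higher runs held 3 genes. They were AKR1C1 with AKR1C2 and AKR1C3, BEX4 with TCEAL8 (1.54) and BEX2, SGCE (1.08) with PEG10 (1.08) and PPP1R9A (1.44), and SH3KBP1 (1.29) with BCLAF3 (1.02) and MAP7D2 (2.53). Of 19690 genes with a place in the order, 2.23% were 2-fold higher and 0.858% lower. The number of runs that these shares would give by themselves was not computed. In the AKR1C run the probe sets of AKR1C1 and AKR1C2 split, with AKR1C2 at -0.03 on its unmarked one. SGCE and PEG10, a pair of imprinted genes, stood at -0.35 and -0.72 in LhTERTL/cre+, the lowest array for both, and at 1.0 and 1.33 in LhTERTL. Prostaglandin synthase PTGS2 (1.5) lay beside the phospholipase PLA2G4A (2.85), which supplies its substrate, and P2RX7 beside P2RX4 (1.44). PTGS2 stood at -0.10 in mock, 1.40 in LhTERTL, 0.00 in mock/cre+ and -0.18 in LhTERTL/cre+, and PLA2G4A at -2.59, 0.26, 0.29 and -0.26. LhTERTL was thus the high array for PTGS2 and mock the low one for PLA2G4A. The probe sets of PTGS2 disagreed, at 0.25 and 2.75. ZNF667 lay beside its antisense transcript ZNF667-AS1 (3.84).

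Long non-coding RNAs held 34 of 2658 genes 2-fold higher (1.28%) and 10 lower (0.376%), and protein-coding genes 403 of 16521 (2.44%) and 157 (0.95%). Of 11721 probe sets with no symbol here, 91 were 2-fold higher and 39 lower, where 1170 (2.14%) and 507 (0.928%) of all 54613 probe sets were.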
